A study of Mus musculus with 12 samples.

Results

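Signalling kinases add phosphate to proteins and protein phosphatases take it off, and the genes described here encode such enzymes with their regulatory subunits and scaffolds. They were chosen by gene symbol from the platform annotation of a mouse array: symbols of the MAP kinase, cyclin-dependent kinase, calcium/calmodulin kinase, Prk, Stk, Nek, casein kinase, Akt and phosphoinositide 3-kinase families, and of the Ppp1 to Ppp6, Ptpn, Ptpr and Dusp phosphatase families. Map2k1, Cdk1, Cdk4 and Ppp2ca were left out by the same rule. It found 75 genes, measured by 109 probes, of 3089 named genes and 22575 probes in all. The rule reads symbols and uses no measured value.

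The study set total RNA from oocytes labelled aged directly against total RNA from oocytes labelled young, both from mouse, on 12 two-colour arrays, which asks how oocyte transcripts differ with age. The labels give no strain, exact age, oocyte stage or treatment. Aged RNA 1 was set against young RNA 1 (pair 1), aged RNA 2 against young RNA 5 (pair 2) and aged RNA 3 against young RNA 2 (pair 3). The 4 arrays of a pair, from 2 labellings with the dyes Cy5 and Cy3 in both orientations, entered as 1 replicate. Nothing in the labels tells whether different animals or pools gave the RNAs, so a p-value here reflects only the spread among these 3 pairs, which may be technical.

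Each value below is a log2 ratio, aged over young, taken relative to the median of its array, so 0 marks no difference and -1 a halving in aged oocytes. No source used here states the direction of the deposited ratios. They were read as Cy5 over Cy3, a convention assumed here and not settled by the data, and with the opposite convention every sign below changes. A further reading, in which the values are already aged over young and no sign is turned, was kept as an alternative. Under it 26.1% of all rows had an unadjusted p under 0.05, against 6.55% as read here, 0 rows passed after adjustment under either, and 44 of the 75 genes changed sign. Before any sign was turned, dye-swapped arrays of the same RNA pair correlated at -0.309 to 0.275 over all probes (median 0.0569). A shared difference between aged and young RNA gives values below 0 if these are dye ratios. The correlations were below 0 only in pair 1, at -0.309 to -0.0621. They were 0.0332 to 0.228 in pair 2 and 0.106 to 0.275 in pair 3. Arrays of the same pair and orientation correlated at 0.364 to 0.655 (median 0.491). Spot intensities were not used, so no level in aged or in young oocytes can be given and the labelled cell type cannot be checked by level. Precision is limited by the number of RNA pairs, since the 4 arrays of a pair are technical repeats. A lower ratio cannot tell fewer cells of a type from less RNA per cell. The array medians of the deposited log10 ratios lay between -0.0026 and 0.0038 in pairs 2 and 3 and between -0.316 and 0.0473 in pair 1, and the log2 spread of single arrays ran from an SD of 0.391 to 1.23, the widest on 1 array of pair 1. Of the marker lists, 4 of 22 oocyte genes were measured, at -1.18 to 0.62 with 3 of the 4 below 0, 3 of 20 cumulus and granulosa cell genes at -0.15 to 0.09, and 4 of 21 blood and immune cell genes at 0.02 to 0.36, all 4 above 0 and 3 of 4 without centring. The part of other cells in the ratios below was not tested.

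In the ovary an oocyte waits in meiotic prophase for most of its life, held there by cyclic AMP and protein kinase A. Release from that arrest runs through cyclin-dependent kinase, while protein phosphatases 1 and 2A set how long its substrates stay phosphorylated. The MAP kinase cascade then holds the mature egg at the second meiotic metaphase, and the calcium signal of fertilisation ends this hold through calcium/calmodulin-dependent kinase II. Phosphoinositide 3-kinase and Akt act earlier, when resting follicles are recruited to grow. Oocytes make little new RNA once fully grown, so many of these proteins are translated from stored transcripts, and a transcript ratio does not measure the activity of an enzyme.

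Cyclic AMP signalling also reaches promoters, through the factor CREB and the cyclic AMP response element TGACGTCA, and the member promoters that hold the complete element upstream of the start are shown to give the letters behind that name. RefSeq promoter sequences (build GRCm38.p6, 250 bases before to 50 after a gene's start) matched 62 of the 75 genes. The element stood in 3 of them, 4.84%, against 2.03% of 27025 genes with a promoter in the table. It lay within the upstream bases of Ppp2r2d, a regulatory subunit of protein phosphatase 2A, and of Ptpn11, the tyrosine phosphatase SHP2, printed 5′ to 3′ on the gene's strand with the element in capitals. In the remaining gene the element did not lie wholly in the upstream bases.
Ppp2r2d (chr7:138846312-138846371, plus strand): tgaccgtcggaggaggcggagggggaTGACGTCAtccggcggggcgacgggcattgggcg
Ptpn11 (chr5:121191431-121191490, minus strand): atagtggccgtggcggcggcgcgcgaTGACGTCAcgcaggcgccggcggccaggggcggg

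The element reads the same on both strands, and 10 further motifs were searched on both strands of the same windows. GGGCGG, the GC box bound by Sp1, stood in 74.2% of member promoters against 38.2% of all, and TGACG, which the complete element contains, in 51.6% against 23%. CCAAT stood in 41.9% against 41.1%, TATAAA in 11.3% against 15.7%, CACGTG in 6.45% against 8.09%, and CCGGAAGT, an ETS site, in 8.06% against 4.31%. The NRF1 site was found in 3.23% against 1.07%, the E2F site TTTCGCGC in 1.61% against 0.374%, the YY1 site in 1.61% against 0.755% and the serum response element in 0 members against 0.0777%. The table of all promoters includes non-coding genes, a match to letters is not a bound site, and these data do not measure binding. The ratios of the printed pair were 0.16 ± 0.11 for Ppp2r2d and 0.34 ± 0.20 for Ptpn11 (SD, n = 3 pairs), and neither passed the test described next.

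The 3 pair values of each gene were tested against 0 with limma, two-sided, with Benjamini-Hochberg adjustment over all 21370 rows (named genes and unnamed probes). No kinase or phosphatase gene differed between aged and young oocytes at an adjusted p under 0.05: 0 of 75 passed, against 0% of all rows (percent called), and the lowest adjusted p among the 75 was 0.604. An unadjusted p under 0.05 was found for 5 genes. Mapkbp1 was the 1 gene above 0, 1.33% of the 75, against 2.33% of all named genes. Map4k5, Ptpro, Mapk6 and Stk36 were the 4 below 0, 5.33% of the 75, against 5.34% of all named genes. Neither share was above that background, and each of the 5 genes rested on 1 probe.

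The 75 ratios ran from -0.75 to 0.64, with 35 above 0 and 40 below, so that 46.7% were above 0, against 50.1% of all named genes. Their median was -0.02, against 0.0015 for the 3014 other named genes, and their median distance from 0 was 0.167, against 0.145 for the others. Only 3 of the 75, Map4k5, Mapk6 and Ppp1r14c, lay farther than 0.5 from 0, which is 4% against 7% of the other named genes. The median 95% interval of a gene reached 0.381 to either side of its ratio, so a typical gene with a ratio near 0 may still differ by that much. All 3 pairs had the same sign in 28 genes, 37.3%: 15 genes above 0, 20%, where the share of all named genes was 16.3%, and 13 below 0, 17.3%, where it was 16.4%.

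**Figure D1:**
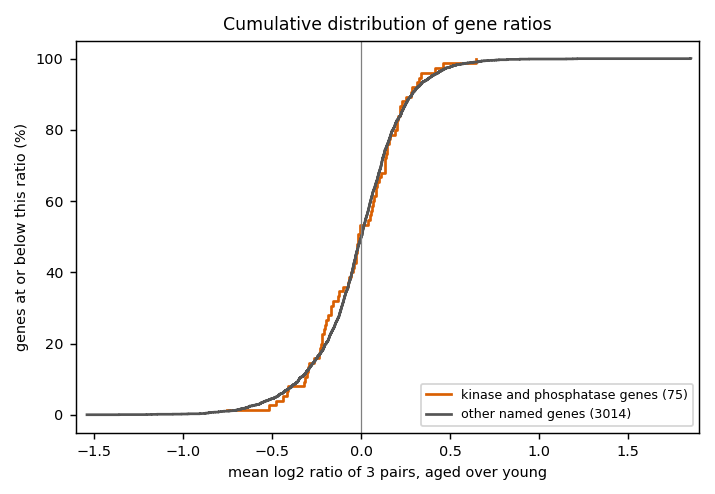
Cumulative distribution of the mean log2 ratio of aged over young over 3 pairs (x axis) as the percentage of genes at or below it (y axis), for the 75 kinase and phosphatase genes and the 3014 other named genes. The curves lie close together, with medians of -0.02 for the 75 genes and 0.0015 for the others, and only 3 of the 75 lie beyond 0.5 on either side.

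Among the kinases of the MAP kinase cascade, in which a row of kinases activate one another down to a terminal MAP kinase, 3 of 8 ratios were above 0 and 5 below, with a median of -0.03. The split was 2 and 6 without centring, and 4 and 4 with arrays scaled to 1 spread. Map4k5, an upstream kinase of the JNK branch, had pair values of -0.60, -1.08 and -0.57, and its 12 arrays ran from -2.02 through a median of -0.77 to 1.41. It was below 0 in every pair and on 11 of 12 arrays, the exception being 1 array of pair 1 with the aged RNA in Cy5. Its mean was -0.75 ± 0.29 (SD, n = 3 pairs), 1.69-fold lower in aged oocytes, with a 95% interval from -1.16 to -0.35 (limma, unadjusted p = 0.00478, adjusted p = 0.604). The unadjusted p stayed under 0.05 with any one pair left out, at 0.0012 without pair 1, 0.0327 without pair 2 and 0.0172 without pair 3.

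Mapk6, the atypical MAP kinase ERK3, had pair values of -0.72, -0.78 and -0.05. Pairs 1 and 2 were low and pair 3 was near 0, although 11 of 12 arrays were below 0, between -1.19 and 0.10 with a median of -0.62. The mean was -0.52 ± 0.41 (SD, n = 3 pairs; limma, unadjusted p = 0.0402, adjusted p = 0.716), and the unadjusted p was 0.0649 without pair 1 and 0.184 without pair 2. Mapkapk5, the kinase that binds ERK3 and is activated by it, had -0.48, -0.32 and -0.07, a mean of -0.29 ± 0.21 (SD, n = 3 pairs) with an interval from -0.65 to 0.07. Its pairs also shared 1 sign and pair 3 was again nearest to 0, but its 2 probes lay apart at -0.61 and 0.03.

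The p38 and JNK kinases answer to stress. Mapk14, the p38 alpha kinase, had pair values of -0.34, -0.08 and -0.20 and a mean of -0.21 ± 0.13 (SD, n = 3 pairs), and its 2 probes, at -0.21 and -0.20, lay closer together than those of any other gene with more than 1 probe. Mapk8, which encodes JNK1, had 0.04, -0.06 and 0.17, a mean of 0.05 ± 0.12, with probes of opposite sign at 0.36 and -0.26. Mapk9, which encodes JNK2, had 1.01 in pair 1, against -0.26 in pair 2 and -0.14 in pair 3. Map2k4, the kinase that activates JNK and p38, had 0.64, 0.04 and -0.02, with an interval from -0.23 to 0.67 around its mean of 0.22. Its pair 1 arrays were high only with the aged RNA in Cy5, at 0.75 and 1.74, against -0.08 and 0.14 with the dyes swapped.

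Scaffolds bring the members of a cascade together. Mapkbp1, a protein that binds JNK, had pair values of 0.39, 0.23 and 0.75 and arrays from -0.29 through a median of 0.41 to 1.88, with 8 of 12 above 0. All 3 pairs were above 0, and pair 3 was the highest. The array at 1.88 was from pair 1, whose other arrays lay at -0.29, 0.21 and -0.23. In pair 2 only the arrays with the aged RNA in Cy3 were above 0, at 0.64 and 0.55. The mean of Mapkbp1 was 0.46 ± 0.27 (SD, n = 3 pairs; limma, unadjusted p = 0.0296, adjusted p = 0.716), and the unadjusted p was 0.156 without pair 3. Mapk8ip1, the JNK scaffold JIP1, had 0.27, 0.11 and 0.19, and Mapk1ip1l, named as a binding partner of a MAP kinase, had 0.13, 0.15 and 0.32. Those pair values were close, but the means of 0.19 ± 0.08 and 0.20 ± 0.11 (SD, n = 3 pairs each) had intervals that included 0. In the 5 scaffold and effector genes the median was 0.19, and 0.07 without centring, with 3 above 0 and 2 below. On the arrays with aged RNA in Cy5 only all 5 were above 0, as were 49 of the 75 genes. With aged RNA in Cy3 only 3 of the 5 were above 0.

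**Figure D2:**
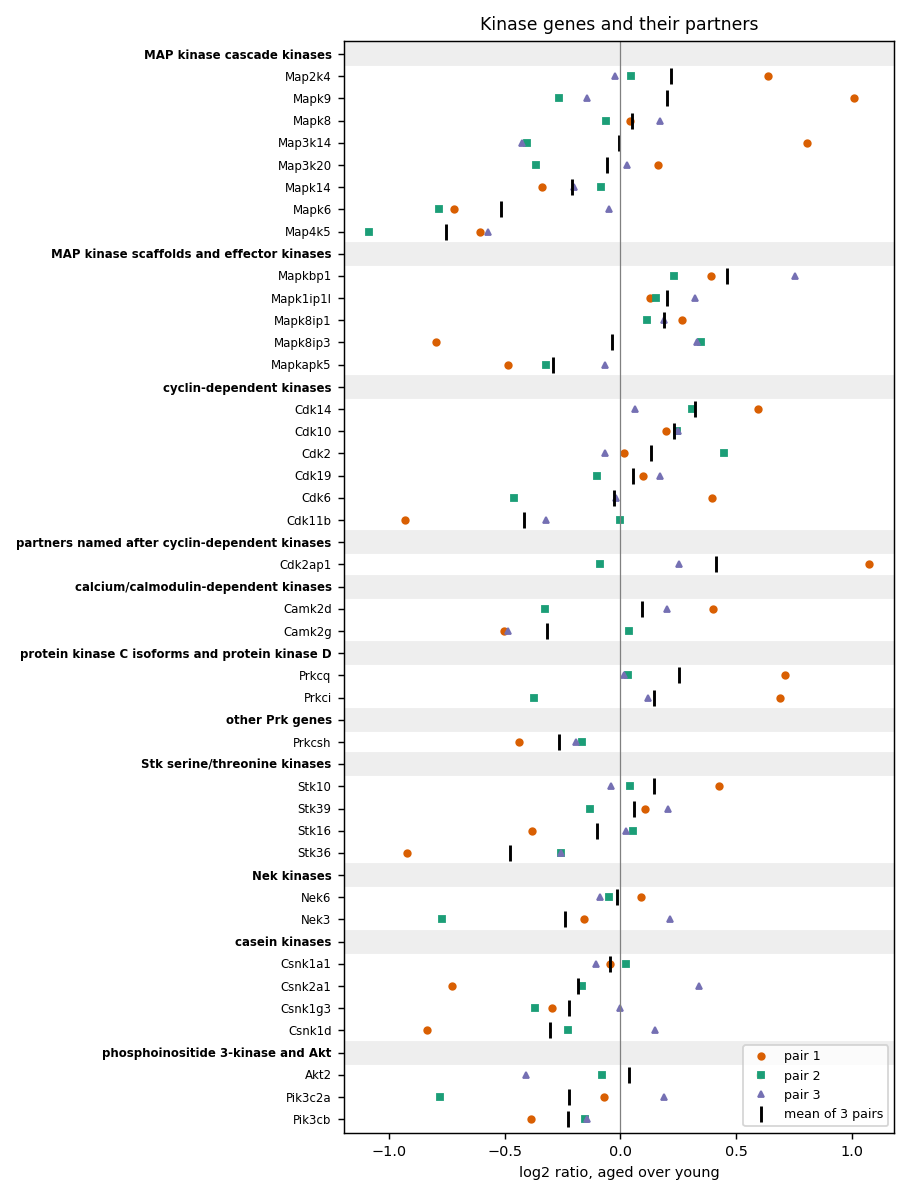
Log2 ratio of aged over young (x axis) for each kinase gene or partner, grouped by family, with a point for each of the 3 RNA pairs and a bar for their mean. Pair 1 is often the point farthest from 0, and Map4k5, Stk36 and Mapkbp1 are among the genes with all 3 pairs on one side.

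Cyclin-dependent kinases drive the cell cycle and, in several members, transcription. Of 6, 4 had ratios above 0 and 2 below, with a median of 0.09, which was -0.02 without centring of the arrays. Cdk14, a kinase of the cell membrane active in Wnt signalling, had 0.60, 0.31 and 0.06 and a mean of 0.32 ± 0.27, and Cdk10, a partner of cyclin M, had 0.20, 0.25 and 0.25 and a mean of 0.23 ± 0.03 (SD, n = 3 pairs each). The 3 pairs of Cdk10 lay close together, yet its interval ran from -0.07 to 0.54, because limma draws the spread of each gene towards that of all rows. Cdk2, the kinase of S phase, had 0.02, 0.45 and -0.07, with arrays from -2.22 to 2.14, and Cdk11b, which acts in splicing and mitosis, had -0.93, 0.00 and -0.32. Cdk2ap1, which is no kinase but an inhibitor that binds Cdk2, had 1.07 in pair 1, -0.09 in pair 2 and 0.25 in pair 3, so that 1 pair carried most of its mean of 0.41 ± 0.60 (SD, n = 3 pairs).

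Camk2g encodes the calcium/calmodulin kinase II isoform that mouse eggs use to leave metaphase at fertilisation. Its pair values were -0.50, 0.04 and -0.49, with 10 of 12 arrays below 0, and its mean was -0.32 ± 0.31 with an interval from -0.73 to 0.10. The value came almost wholly from 1 of its 2 probes, at -0.65, while the other was at 0.01. Camk2d, a sister isoform, had 0.40, -0.32 and 0.20, a mean of 0.09 ± 0.37 (SD, n = 3 pairs), with its pairs on both sides of 0. Without centring both isoforms were below 0.

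Protein kinase C isoforms answer to diacylglycerol, or, for the atypical isoform Prkci, to cell polarity proteins. Prkci had 0.69, -0.37 and 0.12 and Prkcq, the isoform known from T cells, had 0.71, 0.03 and 0.01. Both means were above 0, at 0.14 and 0.25, and both rested mainly on pair 1. Prkcsh, which was taken by its symbol but encodes a subunit of a glycoprotein-trimming glucosidase, had -0.44, -0.17 and -0.19, a mean of -0.27 ± 0.15 (SD, n = 3 pairs).

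Of the 4 Stk kinases, Stk36, a relative of the fly kinase fused that is needed for motile cilia in mouse, had pair values of -0.92, -0.26 and -0.25. It was below 0 on 11 of 12 arrays, which ran from -1.82 through a median of -0.28 to 0.25, and pair 1 was the lowest. Its mean was -0.48 ± 0.38 (SD, n = 3 pairs; limma, unadjusted p = 0.047, adjusted p = 0.716), and the unadjusted p missed 0.05 whichever pair was left out, between 0.0642 and 0.132. Stk10, which phosphorylates proteins that tie the membrane to actin, had 0.43, 0.04 and -0.04, Stk39, a regulator of ion cotransporters, had 0.10, -0.13 and 0.20, and Stk16, a kinase of the Golgi, had -0.38, 0.06 and 0.02. None of these had 1 sign in all pairs. Nek3 had -0.16, -0.77 and 0.21 and Nek6, a kinase of the mitotic spindle, had 0.09, -0.05 and -0.09, both with means below 0, at -0.24 and -0.02, although 1 of them was above 0 with arrays scaled to 1 spread.

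Casein kinases phosphorylate many targets without waiting for a signal. All 4 measured genes had means below 0, with a median of -0.20, and none passed the test. All 4 stayed below 0 without centring and with arrays scaled to 1 spread, but all 4 were above 0 on the arrays with aged RNA in Cy5 only, where the median was 0.10. Without pair 1 the median was -0.04, and Csnk2a1 was above 0, at 0.09. The split also depended on the probes. With 1 probe per gene 1 gene was above 0, and with probes that list several genes counted 2 were above 0 and 2 below. Csnk1d, which acts on the clock protein PER, had -0.83, -0.22 and 0.15. Csnk2a1, the catalytic subunit of casein kinase 2, had -0.73, -0.17 and 0.34, from 2 probes with means of -0.41 and 0.04. In both genes pair 1 was the lowest and pair 3 was above 0. Csnk1g3, a membrane-bound form, had -0.30, -0.37 and 0.00, and Csnk1a1, part of the complex that marks beta-catenin for degradation, had -0.05, 0.02 and -0.11.

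Phosphoinositide 3-kinases make the membrane lipids that recruit Akt. Pik3cb, the class I catalytic subunit p110 beta, had -0.39, -0.15 and -0.15, a mean of -0.23 ± 0.14 (SD, n = 3 pairs) with an interval from -0.56 to 0.10. Pik3c2a, a class II enzyme of membrane traffic, had -0.07, -0.78 and 0.19, low in pair 2 alone. Akt2, the isoform of insulin signalling, had 0.60, -0.08 and -0.41, a mean of 0.04 ± 0.52, from 9 arrays, since 3 of its values were missing, and its pair 3 value came from labelling 2 alone. With the missing values kept as deposited, on the limits or at 0, the mean of Akt2 was -0.38, and its sign changed in 9 of 16 alternatives, among them those without centring and with arrays scaled to 1 spread.

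Protein phosphatase 1 works through regulatory subunits that direct its catalytic subunit to substrates. The 8 genes split 4 above 0 and 4 below. Ppp1cc, the catalytic subunit measured here, had pair values of -0.12, -0.40 and 0.05, a mean of -0.16 ± 0.23 with an interval from -0.53 to 0.21. Ppp1r7, a regulator bound to the catalytic subunit from its assembly on, had -0.62, -0.37 and 0.03, and Ppp1r15b, which directs the phosphatase to the translation factor eIF2 alpha, had -0.39, -0.59 and 0.09. Pairs 1 and 2 of these were below 0 and pair 3 was not, and both means, -0.32 ± 0.33 and -0.30 ± 0.35 (SD, n = 3 pairs each), had intervals that included 0.

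Above 0 were Ppp1r9a, the synaptic scaffold neurabin, at 0.12, 0.14 and 0.60, and Ppp1r13b, the p53 partner ASPP1, at 0.55, 0.35 and -0.06. In pair 3 the arrays of Ppp1r9a stood at 1.19 and 1.26 with the aged RNA in Cy5, against 0.04 and -0.08 with the dyes swapped. Ppp1r14c, an inhibitor of protein phosphatase 1 that protein kinase C strengthens, had the highest mean of the 75 genes, 0.64 ± 1.29 (SD, n = 3 pairs), and the widest spread. Its pair values were 2.11, 0.12 and -0.30, and its arrays ran from -0.59 through a median of 0.04 to 3.82. Only the arrays of pair 1 with the aged RNA in Cy5 stood above 3, at 3.82 and 3.25, against 0.09 and 1.27 for the same RNAs with the dyes swapped.

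Protein phosphatase 2A joins a scaffold, a catalytic and a variable subunit. The scaffold isoforms stood on opposite sides of 0: Ppp2r1a had 0.08, 0.12 and 0.42, with 10 of 12 arrays above 0, and Ppp2r1b had -0.36, -0.13 and -0.10, with 10 of 12 below. Each had 1 sign in all pairs and in the means of both of its probes. The probes lay apart, at 0.05 and 0.36 in Ppp2r1a and at -0.008 and -0.38 in Ppp2r1b, the smaller of each near 0. The means of 0.21 ± 0.19 and -0.20 ± 0.14 (SD, n = 3 pairs each) had intervals from -0.14 to 0.56 and from -0.53 to 0.14. Their difference was not tested. Of the variable subunits, Ppp2r2d had 0.15, 0.06 and 0.28, and Ppp2r2b had 0.53, 0.05 and -0.11.

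Calcineurin is the phosphatase switched on by calcium. Ppp3cb, a catalytic subunit of it, had -0.12, -0.33 and -0.23, below 0 in all pairs, in the means of both probes and on 10 of 12 arrays. In pair 1 its probes stood on opposite sides of 0, at -0.71 and 0.46. Its mean was -0.23 ± 0.10 (SD, n = 3 pairs), with an interval from -0.54 to 0.09. Ppp6c, the catalytic subunit of protein phosphatase 6, which limits Aurora A kinase on the spindle, had -0.19, 0.06 and -0.25, and its regulatory subunits Ppp6r2 and Ppp6r3 had means of 0.10 ± 0.23 and 0.09 ± 0.17 (SD, n = 3 pairs each). Without centring all 4 genes of this group were below 0.

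**Figure D3:**
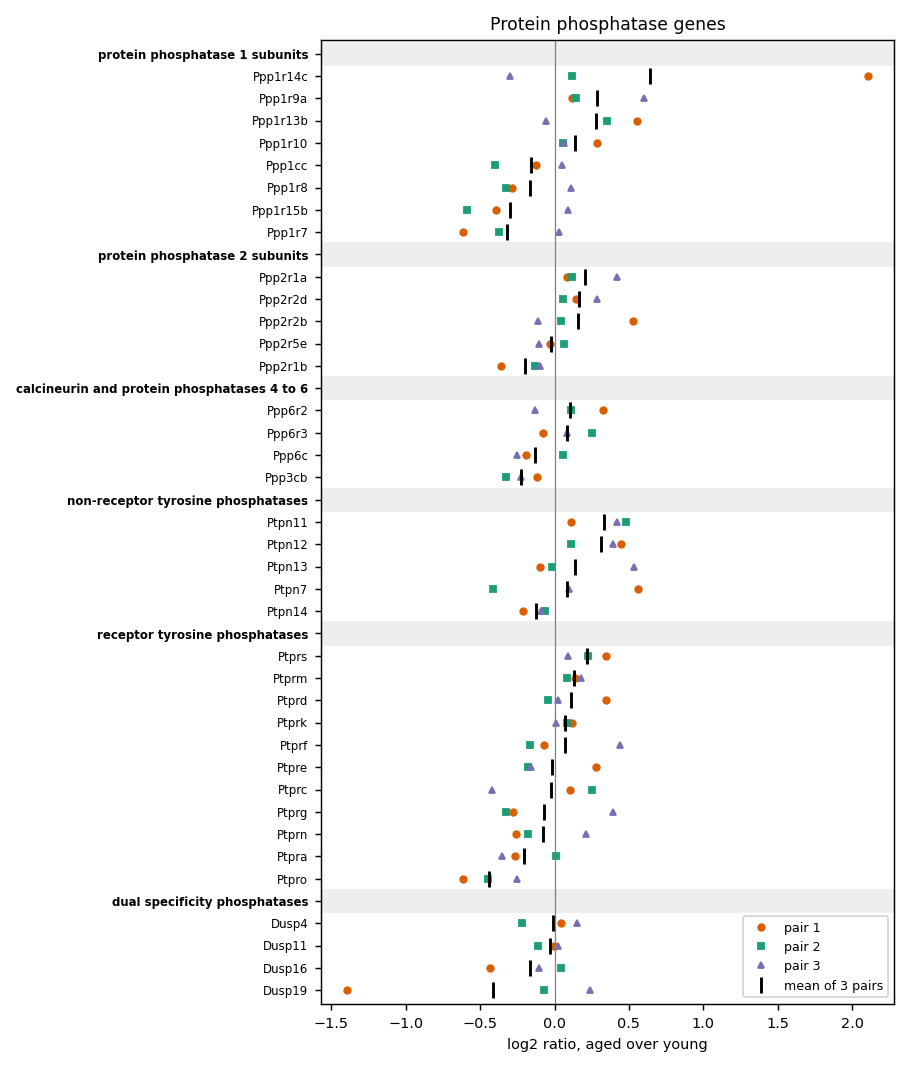
Log2 ratio of aged over young (x axis) for each phosphatase gene, grouped by family, with a point for each of the 3 RNA pairs and a bar for their mean. Ppp1r14c in pair 1, at 2.11, and Dusp19 in pair 1, at -1.39, are the points farthest from 0.

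Tyrosine phosphatases oppose tyrosine kinases or, as Ptpn11 does, help growth factor signals on to Ras. Ptpn11 had 0.11, 0.48 and 0.42, above 0 on 10 of 12 arrays, with a mean of 0.34 ± 0.20 and an interval from -0.02 to 0.69. Its 2 probes did not share this value: one was at 0.69 and the other at -0.02. Ptpn12, which acts on focal adhesion proteins, had 0.44, 0.11 and 0.39, a mean of 0.32 ± 0.18 (SD, n = 3 pairs) with an interval from -0.03 to 0.66. Ptpn13 had -0.10, -0.02 and 0.54, high in pair 3 alone, and Ptpn14, which binds the growth regulator YAP, had -0.21, -0.07 and -0.09. Of these 5 non-receptor genes 4 were above 0, and 3 without centring or with arrays scaled to 1 spread.

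Receptor tyrosine phosphatases carry adhesion-like domains outside the cell. The 11 genes held 5 above 0 and 6 below, with a median of -0.02, which was -0.13 without centring and 0.04 with arrays scaled to 1 spread. Ptpro, known from podocytes of the kidney, had -0.62, -0.45 and -0.25, and its arrays ran from -1.32 through a median of -0.36 to 0.07, with 11 of 12 below 0. Its mean was -0.44 ± 0.18 (SD, n = 3 pairs; limma, unadjusted p = 0.0227, adjusted p = 0.716), and the unadjusted p was 0.0542 without pair 1 and 0.102 without pair 2. Ptprs had 0.34, 0.23 and 0.09 and Ptprm, an adhesion receptor, had 0.14, 0.09 and 0.18, each with all pairs above 0 and an interval that included 0. Ptpra, which activates Src kinases, had -0.26, 0.01 and -0.35, and its probes lay at -0.70, 0.03 and 0.06. Ptprc, the leukocyte antigen CD45, had 0.10, 0.25 and -0.42, a mean of -0.02 ± 0.35, beside blood and immune markers at 0.02 to 0.36.

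Dual specificity phosphatases include those that switch MAP kinases off. All 4 measured genes had means below 0, with a median of -0.10. All 4 stayed below 0 without centring and with arrays scaled to 1 spread, but 3 were above 0 on the arrays with aged RNA in Cy5 only. Without pair 1 the median was -0.03 and Dusp19 was above 0, at 0.08, and without pair 2 Dusp4 and Dusp11 were above 0, at 0.10 and 0.0077. Dusp16, which acts on JNK and p38, had -0.44, 0.04 and -0.11, and Dusp4, a nuclear phosphatase of MAP kinases, had 0.04, -0.22 and 0.15. Dusp19 had -1.39, -0.07 and 0.24, and 1 array of pair 1 lay at -5.13, against a median of 0.11 over its arrays. Dusp11, which acts on RNA rather than on protein, had -0.01, -0.11 and 0.02. None of the 4 had 1 sign in all pairs.

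Differences among the 3 pairs, tested on the 12 arrays with limma with the dye orientation in the model, passed an adjusted p under 0.05 in 4 of the 74 genes tested, 5.41%, against 5.99% of 21218 rows. These were Mapk9 (adjusted p = 0.00823), Ppp1r14c (0.0116), Mapk8ip3 (0.0383) and Pik3c2a (0.046). Mapk8ip3, the JNK scaffold JIP3 that also links cargo to motors, had -0.79 in pair 1, against 0.35 and 0.33 in pairs 2 and 3. In Mapk9 the 4 arrays of pair 1 lay between 0.61 and 1.35, above all 8 arrays of the other pairs, and the value of that pair came from 1 of its 2 probes, at 1.93, with the other at 0.08. Pair 1 was the pair farthest from 0 in 41 of the 75 genes, pair 2 in 16 and pair 3 in 18. The spread across the 75 genes was 0.535 in pair 1, 0.291 in pair 2 and 0.258 in pair 3 (SD), and the same order held for the other named genes, at 0.522, 0.317 and 0.311.

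**Figure D4:**
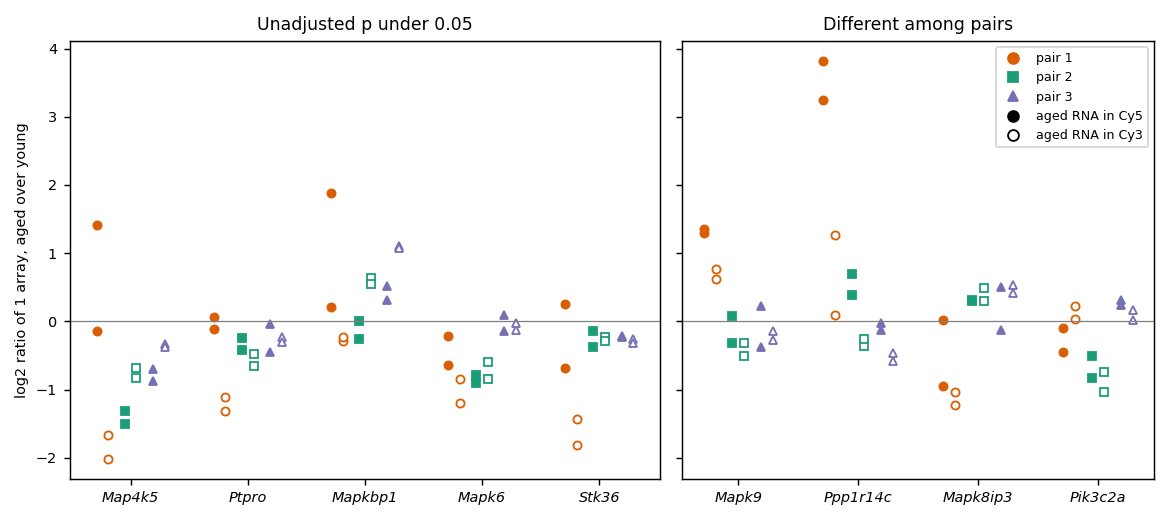
Log2 ratio of aged over young (y axis) on each of the 12 arrays for the 5 genes at an unadjusted p under 0.05 (left) and the 4 genes that differed among pairs (right). Colour and shape give the pair, and filled and open points have the aged RNA in Cy5 and in Cy3. Map4k5 is below 0 on 11 of 12 arrays, and the points of Ppp1r14c above 3 are both from pair 1 with the aged RNA in Cy5.

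A dye effect is the part of a ratio that keeps its sign when the dyes are swapped, given here as Cy5 over Cy3. It passed an adjusted p under 0.05 in 10 of 74 genes (limma, with the pair in the model): 8 genes above 0, 10.8%, against 11.9% of all rows, and 2 below 0, 2.7%, against 11.5%. Over all named genes the share in either direction was 18.4%, against 13.5% of these genes. The 3 genes with the smallest p were Dusp11 at -0.45, Cdk19, a kinase of the Mediator complex, at 0.36, and Stk10 at 0.35. Before the signs were turned Dusp11 was negative and Cdk19 positive on all 12 arrays, and after turning no gene of the 75 had 1 sign on all 12. Their ratios of aged over young, which average both orientations, were -0.03 and 0.05. Ppp1r14c also had a dye effect, of 0.69, beside its mean ratio of 0.64. So did Ppp1r9a at 0.31 and Map2k4 at 0.36, beside mean ratios of 0.29 and 0.22. Csnk2a1 and Csnk1d had dye effects of 0.48 and 0.33, beside mean ratios of -0.19 and -0.30.

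For 30 of the genes more than 1 probe carried the symbol alone, and in 16 of these, 53.3%, all probes had 1 sign, against 48.9% of the 867 named genes with more than 1 probe. The median range between probes of a gene was 0.307, against 0.262 over those 867 genes. The range was widest in Mapk9, at -0.19 and 0.59, followed by Ptpra, Ptpn11 and Camk2g. For 45 genes a single probe gave the value, with no such check. A further 78 probes listed 38 of the genes together with others, and 41 of the 78 had the sign of the gene's own value.

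**Figure D5:**
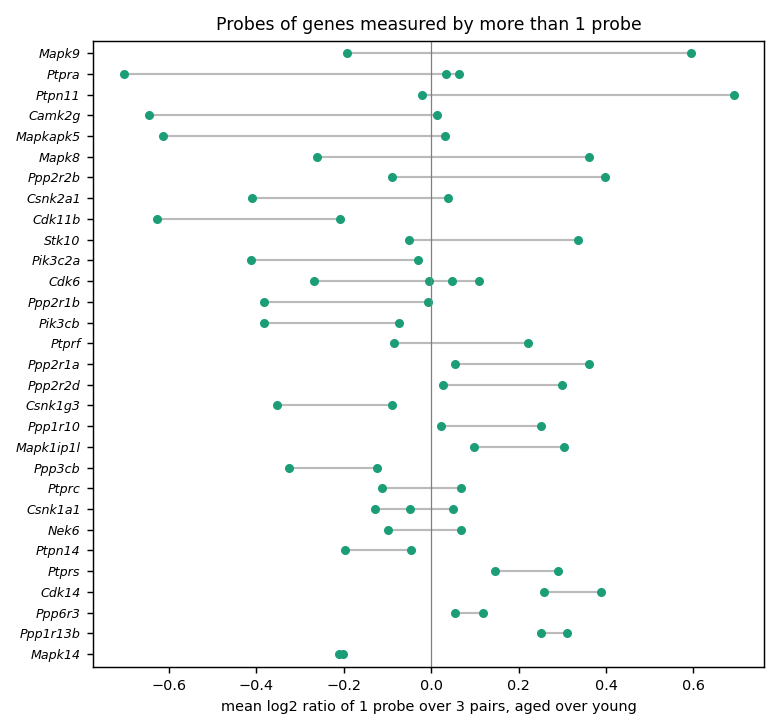
Mean log2 ratio of aged over young over 3 pairs (x axis) of each probe for the 30 genes with more than 1 probe, ordered by the range between probes, with a line joining the probes of a gene. Mapk9, Ptpra, Ptpn11 and Camk2g have the widest ranges and Mapk14 the narrowest, and 16 of the 30 genes have all probes on one side of 0.

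Genes of the same pathways that the symbol rule did not take were measured in part. Of 24 listed Ras, Raf and adaptor genes upstream of MAP kinases 8 were measured, 6 above 0 (4 without centring), and 1 had an unadjusted p under 0.05: Spry4, an inhibitor of Ras signalling, at 0.40 ± 0.09 (pairs 0.30, 0.42 and 0.48). That is 12.5% of the 8, where the share of all named genes with such a p and a ratio above 0 was 2.33%. Of 25 genes of the cyclic AMP pathway 10 were measured, 5 on either side of 0 (3 above without centring), and the smallest p was that of Rgs2, a regulator of G proteins, at 0.36 ± 0.25. Of 25 mTOR, insulin and Foxo genes 7 were measured, 6 below 0, led by Deptor, an inhibitor of mTOR, at -0.40 ± 0.41 (SD, n = 3 pairs each). No gene of the 7 lists had an adjusted p under 0.05.

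Of 20 mitotic and checkpoint kinases 7 were measured, 5 below 0, with a median of -0.18. At an unadjusted p under 0.05 were Cdc7, which fires replication origins, with pairs of -0.70, -0.76 and -0.28, and Aurkc, the Aurora kinase of germ cells, with -0.70, -0.66 and -0.15. These 2 were 28.6% of the 7, against 5.34% of all named genes, in a list chosen with earlier results of these data known. Their means were -0.58 ± 0.26 and -0.50 ± 0.31 (SD, n = 3 pairs each). Aurka, of the spindle poles, which protein phosphatase 6 opposes, had -0.67, -0.28 and 0.13. Of 40 tyrosine kinases 12 were measured, 7 above 0 (6 without centring, 8 with arrays scaled to 1 spread), with Abl2, a cytoplasmic kinase of the actin cytoskeleton, at 0.39 ± 0.15 the 1 gene with an unadjusted p under 0.05, 8.33% of the 12, against 2.33% of all named genes. Of 29 cyclins and regulators 6 were measured, at -0.21 to 0.08, and of 18 calmodulin and calcium release genes 4, at -0.20 to 0.18, among them Rcan1, an inhibitor of calcineurin, at -0.20 ± 0.14 (SD, n = 3 pairs).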

How the data were processed

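The authors deposited 1 value per probe and array, taken here as log10 ratios of the 2 dyes, with no further statement per the labels. Neither scanner software, background correction, dye normalization nor a genome build is given in the sources used here. Values on the limits of -2 and 2 (1215) and exact zeros (513), 0.638% of all values and 0.382% of those of the 109 probes, were treated as missing. Values were converted to log2, centred on each array's median and given the sign of aged over young from the labelled dyes. Arrays were averaged within each dye orientation of a pair, then both orientations with equal weight. Probes with the same single symbol in the platform annotation were averaged to 3089 genes from 4262 probes. Probes listing several genes (6822) or none (11491) stayed unnamed rows. All 75 symbols were the current ones in RefSeq's GRCm38.p6 table, and array positions are not given.

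Tests used limma 3.58.1 (lmFit, eBayes) in R 4.3.3 with the package data.table, version 1.17.8, on 3 pair values, and on 12 arrays for pair and dye (rows with at least 10 arrays). The scripts were tested on simulated data. The unturned arrays of 1 orientation from different pairs correlated at 0.0123 to 0.482 over all probes, and those of opposite orientation from different pairs at -0.12 to 0.412.

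Genes and lists were chosen with earlier results of these data known. The rule for named genes took members at an unadjusted p under 0.05 with 1 sign in the 3 pairs, up to 4 of each family by smallest p, a fixed list, the 3 smallest p for pair and for dye, and the 4 widest probe ranges, which named 62 of the 75 genes. Up to 3 genes of each list outside the symbol rule were named. Alternatives covered the reading of direction, centring, scaling, limits, labellings, dyes, replicates, the random block, probes, spread and rows tested.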

Additional observations from a re-analysis of the deposited data

How the results depend on the processing

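Under 19 alternatives, 17 planned and 2 chosen after seeing the data (without the pair 1 array of widest spread, and pairs 2 and 3 from labelling 2 alone), 0 of the kinase and phosphatase genes passed an adjusted p under 0.05 in limma. Of all rows, 1.07% passed with the pair as a random block, 0.196% without replicate 1 and 0.0608% without centring. With pairs 2 and 3 from labelling 2 alone 0.0422% passed, with named genes alone tested 0.0324%, and under the other alternatives none. The count at an unadjusted p under 0.05, 5 as reported, was 11 with values taken as already aged over young, a reading in which 26.1% of all rows passed and all 5 genes changed sign. It was 8 with aged RNA in Cy5 only, where 14.9% of all rows passed, and 9 with the pair as a random block, where 12.4% passed. With 1 probe per gene it was 9 (6.6% of all rows). It was 3 with labelling 1 alone (5.2%), 3 with labelling 2 alone (5.11%) and 3 to 4 with a replicate left out (4.35% to 8.3%). The median ratio, -0.02 as reported, was 0.18 with values taken as already aged over young, 0.0495 with aged RNA in Cy5 only, -0.13 with aged RNA in Cy3 only, and -0.0333 to 0.0609 with a replicate left out. Without centring it was -0.13, where the median of all named genes was -0.113 and that of all rows -0.08. With centring those 2 backgrounds were 0.00055 and 0.03. The median of all named genes was 0.0927 with values taken as already aged over young. It was 0.0426 with aged RNA in Cy5 only, -0.0688 with aged RNA in Cy3 only, and -0.0267 to 0.0097 with a replicate left out. Genes above and below 0 numbered 35 and 40 as reported. With values taken as already aged over young they were 53 and 22, and without centring 24 and 51. They were 49 and 26 with aged RNA in Cy5 only, 25 and 50 with aged RNA in Cy3 only, and 44 and 31 without replicate 2. The share of all named genes above 0 was not counted under these alternatives, so these counts have only the medians above as background. Over the 17 alternatives for which ratios were compared, 865 values of named genes moved, 733 by less than the SD between pairs and 132 by more, and 175 could not move or stayed equal. Of 252 family medians that moved, 193 did so by less and 59 by more. Map4k5 kept an unadjusted p under 0.05 in 16 of the 19, Ptpro in 14, Mapkbp1 in 13, Mapk6 in 11 and Stk36 in 8. The causes were not tested. The test of the 3 pair values is itself paired, so a further block by replicate number had nothing left to fit there. The random block alternative was fitted on the 12 arrays, which include the technical repeats of each pair. The signal behind each ratio is unknown.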
